A study of Homo sapiens with 3 samples.

Results

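The Notch receptors, ligands and effectors described here are 10 genes, taken by symbol from a table of 58735 genes measured by RNA-seq in H660 cells. They are the receptors NOTCH1, NOTCH2 and NOTCH3, the ligands DLL1, DLL3, JAG1 and JAG2, and the nuclear effectors HES1, HES6 and HEY1. H660 (NCI-H660) is an established human cell line of neuroendocrine prostate cancer, used here as the unmodified parental line. Cells received the vehicle DMSO, 2.5 μM JG231 or 5 μM JG231 for 24 h. JG231 is an allosteric inhibitor of the chaperone HSP70. The comparison with DMSO asks how the inhibitor altered gene expression in this model. Each condition was 1 library, so no standard deviation and no p-value could be given for any gene, and every change is a difference between 2 libraries.

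Notch is a signaling system between neighbouring cells. A ligand on 1 cell binds a receptor on the next, the receptor is cut by ADAM proteases and by gamma-secretase, and its freed intracellular part enters the nucleus, binds the DNA-binding protein RBPJ and switches on repressors of the HES and HEY families. In neural and neuroendocrine tissue these repressors hold down proneural factors, which in turn activate Delta-type ligands. DLL3 differs from the other ligands in that it acts mainly inside the cell that makes it, where it inhibits Notch, and HES6 opposes HES1 although it belongs to the same family. Cells of the neuroendocrine type are therefore known for high DLL3 and HES6 with low Notch activity.

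Values are FPKM, in which fragment counts are divided by transcript length and library size, so that levels of different genes can be set beside each other. The FPKM steps of genes with 1 annotated transcript gave library depths of about 16100000 fragments for DMSO, 20400000 for 2.5 μM and 24100000 for 5 μM, and 86.4% to 90.2% of such genes under 50 fragments lay within 0.1 of a whole fragment. A 95% counting interval beside a level is exact Poisson. Beside a change it is exact binomial, for the log2 ratio of FPKM without a pseudocount. Both use the length of the canonical transcript and cover counting error only, since PCR copies were not marked. A log2 change is log2 of (FPKM + 0.1) in 1 library over (FPKM + 0.1) in the other, a scale that understates the change of low genes. As the nearest measure of error between libraries, the spread of a gene was the robust SD of the log2 difference between both JG231 libraries, taken over the 500 genes closest to it in mean level. It contains any difference between the doses.

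The labelled cell type was checked against marker genes. All 5 neuroendocrine markers (CHGA, SYP, ENO2, NCAM1 and INSM1) were over 1 FPKM in every library, with summed levels of 120.2 FPKM in DMSO, 79.99 with 2.5 μM and 69.2 with 5 μM. CHGA, a granule protein, made up most of that difference with 45.99, 15.05 and 12.7 FPKM, while INSM1 had 13.4, 16.3 and 10.5, SYP 17.7, 12.97 and 14.8, and ENO2 37.03, 30.8 and 27.8. NCAM1, a cell adhesion molecule, was lower as well, with 6.16, 4.82 and 3.40 FPKM. None of 6 prostate luminal markers, 3 basal epithelial markers or 4 leukocyte markers was over 1 FPKM in any library. Of 5 fibroblast markers COL1A1 was over 1 FPKM in 1 library, at 1.27 FPKM with 5 μM. Of 4 endothelial markers CDH5, a vascular cadherin, stood at 4.92 FPKM in DMSO, 0.476 with 2.5 μM and 0.581 with 5 μM, while PECAM1 was listed at 0 in all libraries and the highest value of VWF or KDR was 0.264 FPKM. In bulk RNA, fewer cells of a type and less RNA per cell cannot be told apart.

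In DMSO the effectors and all ligands except JAG1 stood above the receptors. HES6 was highest with 94.4 FPKM, followed by DLL1 with 84.1, DLL3 with 24.03 and JAG2 with 16.9. HEY1 with 11.6 and HES1 with 11.3 FPKM came next, and their counting intervals overlapped. NOTCH1 had 4.52, NOTCH3 3.09, NOTCH2 2.02 and JAG1 1.72 FPKM, with overlapping counting intervals for NOTCH2 and JAG1. Thus 98.7% of protein-coding genes were listed below HES6 in DMSO and 49.2% below NOTCH2. At 5 μM the order was HES6, DLL1, HEY1, DLL3, HES1, JAG2, JAG1, NOTCH2, NOTCH1 and NOTCH3, and no neighbours in it had overlapping counting intervals. JAG1 was thus the lowest of the 10 genes in DMSO and stood above all receptors at 5 μM.

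**Figure D1:**
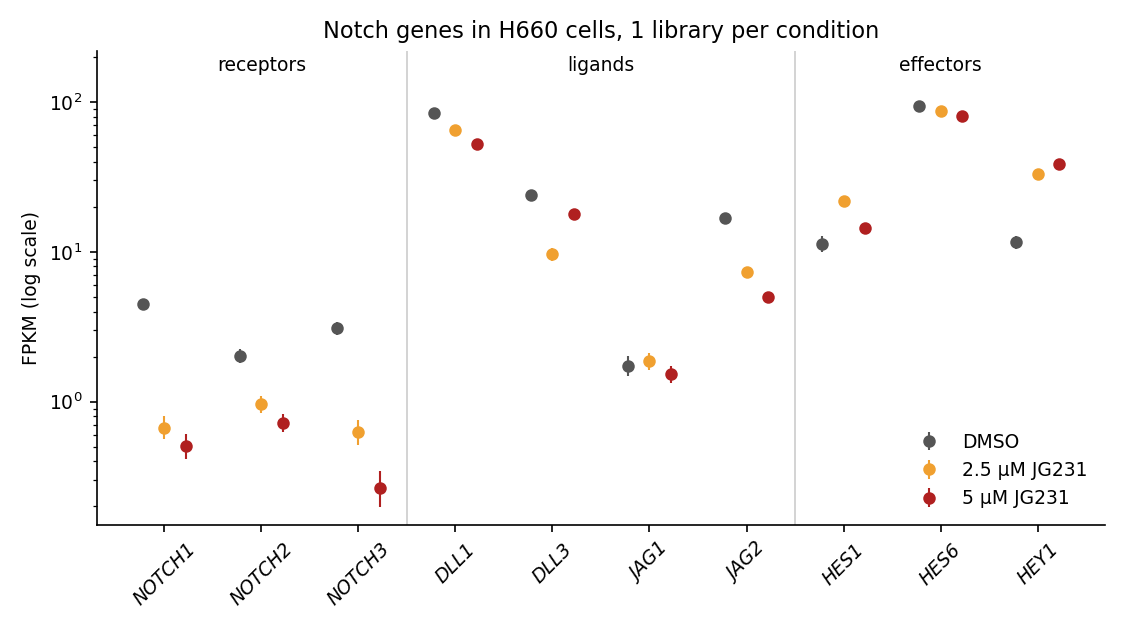
FPKM of the 10 Notch genes on a log axis in the DMSO, 2.5 μM JG231 and 5 μM JG231 libraries, 1 point per library, with 95% counting intervals as bars. The receptors lie at 2.02 to 4.52 FPKM in DMSO and below 1 FPKM in both JG231 libraries, whereas HEY1 goes from 11.6 FPKM in DMSO to 38.8 FPKM at 5 μM.

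All 10 genes were over 1 FPKM in at least 1 of the libraries compared with each other at either dose, the expression filter used here. With the threshold of the study's methods, an absolute log2 change over 0.25, 6 of 10 were lower and 2 higher at 5 μM. Over all 15765 genes past the filter, 45.1% were lower and 36.5% higher by that rule. At 2.5 μM, 6 of 10 were likewise lower and 2 higher, against 43.4% lower and 36.4% higher of 15746 genes. With an absolute log2 change over 1, which is 2-fold on this scale, 4 of 10 were lower and 1 was higher at 5 μM, against 24.3% and 14.7% of all genes. At 2.5 μM 5 of 10 were lower and 1 was higher by that rule, against 21.7% and 12.9%. The 3 receptors passed the filter through DMSO alone and were all lower by over 1 at both doses. These counts are therefore a description and support nothing. The median log2 change of the 10 genes was -0.56 at 5 μM and -0.68 at 2.5 μM, beside -0.11 and -0.08 over all genes past the filter. This median includes the receptors, and its size depended on the filter and the scaling, with values in the last section. The DMSO library is shared by both comparisons, so the values at the doses are not independent. Among all genes past the threshold of 0.25 at 5 μM, 44.7% were higher. That share was 27.7% when each library was rescaled with mitochondrial and small RNA genes left out, and 64.1% among genes with a mean of at least 5 FPKM.

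The receptors were all lower with JG231. Their summed level was 9.64 FPKM in DMSO, 2.26 with 2.5 μM and 1.49 with 5 μM. NOTCH1 (ENSG00000148400, chromosome 9, 136494433 to 136546048 on GRCh38), the receptor best known from T cell development and leukemia, stood at 4.52 FPKM in DMSO, 0.672 with 2.5 μM and 0.505 with 5 μM. These values stood on 696, 131 and 116 fragments. The JG231 levels were 6.73-fold and 8.96-fold below DMSO, and the log2 changes of -2.58 and -2.93 were several times the spread of 0.69 for genes of that level.

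NOTCH3 (ENSG00000074181, chromosome 19, 15159038 to 15200995), a receptor typical of vascular smooth muscle and pericytes, stood at 3.09 FPKM in DMSO, 0.627 with 2.5 μM and 0.265 with 5 μM. The log2 change was -2.13 for 2.5 μM and -3.13 for 5 μM, beyond a spread of 0.93, and the 5 μM level was 11.6-fold below DMSO. It rested on 55 fragments in the 5 μM library. CDH5, given above, was also lower in both JG231 libraries, and a relation between it and the receptors was not tested. NOTCH2 (ENSG00000134250, chromosome 1, 119911553 to 120100779), widely expressed among tissues, had 2.02, 0.961 and 0.725 FPKM. Its log2 changes of -1.001 and -1.36 had counting intervals without 0 but lay close to its wide spread of 1.11, which the change at 2.5 μM did not exceed. NOTCH2 has partial copies elsewhere in the genome with which reads can be shared. The row of NOTCH2NLA, 1 of these copies, held 0.00965 FPKM in DMSO, 0.0229 with 2.5 μM and 0 with 5 μM.

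The receptor transcripts are long, and in these libraries the change went with transcript length. The canonical transcripts of NOTCH1, NOTCH2 and NOTCH3 have 9568, 11425 and 8680 bases in 34, 34 and 33 exons. Among 11200 protein-coding genes with a mean of at least 1 FPKM, the 1120 with the longest transcripts (7460 bases or more) had medians of -0.52 at 5 μM and -0.26 at 2.5 μM on the log2 scale, and those with the shortest had 0.61 and 0.43. The receptors reached a mean of 1 FPKM through their DMSO level, being below 1 FPKM in both JG231 libraries, so their place in this group is a description and supports nothing. Within that longest group, 0.893% of genes were as low as NOTCH1 at 5 μM, 0.625% as low as NOTCH3 and 13.9% as low as NOTCH2. At 2.5 μM the shares were 0.536% for NOTCH1, 1.61% for NOTCH3 and 14.5% for NOTCH2. With a pseudocount of 1 the log2 changes at 5 μM were -1.88 for NOTCH1, -1.69 for NOTCH3 and -0.81 for NOTCH2. With the length trend removed by a lowess fit, the log2 changes at 5 μM were -2.41 for NOTCH1, -2.65 for NOTCH3 and -0.77 for NOTCH2, the last within its spread. Counted over all 15765 genes past the filter, whatever their length or biotype, 10.5% were as low as NOTCH1 and 10.2% as low as NOTCH3 at 5 μM. Both receptors passed that filter through DMSO alone, so these shares are a description as well.

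**Figure D2:**
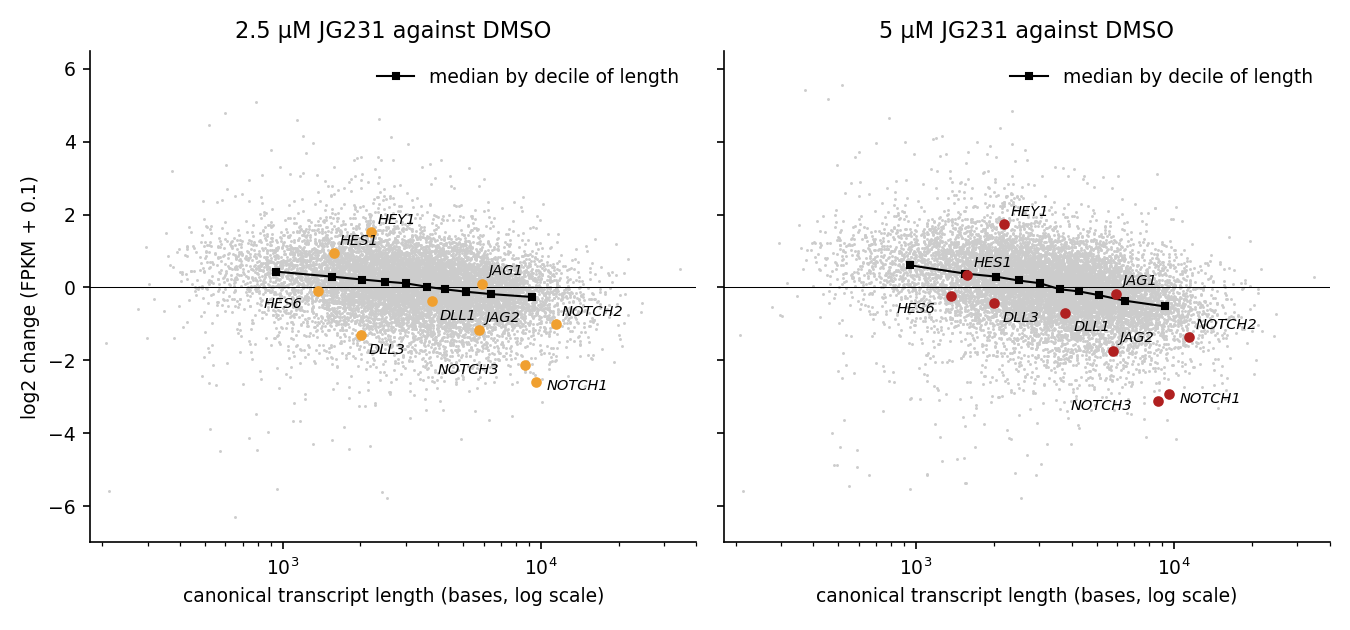
Log2 change against DMSO (FPKM + 0.1) on the canonical transcript length in bases (log axis) for 11200 protein-coding genes with a mean of at least 1 FPKM, in grey, at 2.5 μM (left) and 5 μM (right). The black line joins the medians of 10 equal groups by length, which go from 0.61 to -0.52 at 5 μM, and the coloured points are the 10 Notch genes, with NOTCH1 and NOTCH3 far below the line and HEY1 above it.

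Among the ligands, JAG2 showed the largest difference at 5 μM. JAG2 (ENSG00000184916, chromosome 14, 105140982 to 105168824), a Serrate-type ligand that activates receptors on adjacent cells, stood at 16.9 FPKM in DMSO, 7.40 with 2.5 μM and 4.99 with 5 μM. The log2 changes were -1.18 (counting interval -1.31 to -1.07) and -1.74 (-1.89 to -1.63) against a spread of 0.33. It was also lower at 5 μM than at 2.5 μM, with a log2 difference of -0.56. Of the 14197 genes compared between the doses, 15.5% were as low. JAG1 (ENSG00000101384, chromosome 20, 10637684 to 10673999), the other Serrate-type ligand, had 1.72, 1.86 and 1.52 FPKM. Its log2 changes of 0.10 and -0.17 were within the spread of 0.74, and the counting intervals of both included 0. So JAG1 differed from JAG2 in having nearly the same level in all libraries, at a level too low to tell a moderate change from the spread.

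The Delta-type ligands were lower at both doses but ordered the doses differently. DLL1 (ENSG00000198719, chromosome 6, 170282206 to 170306565), an activating ligand, stood at 84.1 FPKM in DMSO, 65.1 with 2.5 μM and 52.1 with 5 μM. Its log2 changes were -0.37 and -0.69, beyond a spread of 0.22. The annotated exons of DLL1 share 370 of 3819 bases with FAM120B on the opposite strand, which had 15.1, 8.83 and 4.92 FPKM, and reads within the shared bases can be told apart only by strand. The labels describe the libraries as stranded, the study's methods name an Illumina Tru-Seq RNA preparation without mention of strand, and whether strand was used in counting is not given in the sources used here. DLL3 (ENSG00000090932, chromosome 19, 39498895 to 39508481), the inhibitory ligand, stood at 24.03 FPKM in DMSO, 9.64 with 2.5 μM and 17.8 with 5 μM. The log2 change was -1.31 (counting interval -1.50 to -1.14) at 2.5 μM and -0.43 (-0.57 to -0.29) at 5 μM, against a spread of 0.26. At 5 μM it was -0.73 with the length trend removed and -0.81 after rescaling with mitochondrial and small RNA genes left out, and the latter setting put DLL1 at -0.66 for 2.5 μM and -1.07 for 5 μM. DLL3 was lowest at the lower dose. Its 5 μM level was above its 2.5 μM level by 0.88 on the log2 scale, and 8.41% of the 14197 genes compared between the doses were as high.

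**Figure D3:**
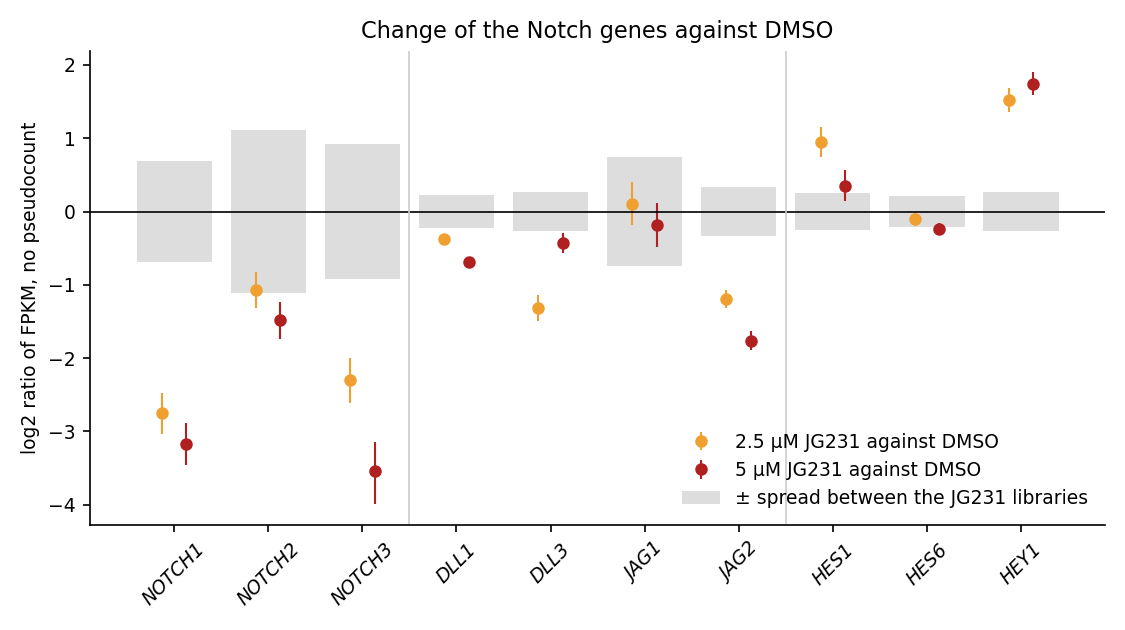
Log2 ratio of FPKM against DMSO, without a pseudocount, for the 10 Notch genes at 2.5 μM and 5 μM JG231, with 95% counting intervals as bars. Grey boxes give the spread between the JG231 libraries for genes of the same level, from 0.21 for HES6 to 1.11 for NOTCH2. NOTCH1, NOTCH3, DLL1, DLL3 and JAG2 lie below their boxes at both doses, and HES1 and HEY1 above theirs.

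The effectors differed in direction. HEY1 was higher and HES6 lower at both doses in every setting tried, while the direction of HES1 at 5 μM depended on the setting. The HES and HEY genes encode basic helix-loop-helix repressors, and the upstream sequence of HES1, the classical Notch target, carries binding sites for RBPJ. The 250 bases before the start of HES1 (chr3:194135898-194136147, plus strand) and of HES6 (chr2:238240039-238240288, minus strand) are shown, from RefSeq on GRCh38.p14, because these effectors of opposite function also differ in their upstream motifs. The HES6 window lies inside the GENCODE span of the gene given with its values, because that span begins further upstream than the RefSeq start. Capitals mark TGGGAA, the core of the RBPJ site, in HES1 and CAGCTG, an E-box of the kind bound by proneural factors, in HES6.
HES1: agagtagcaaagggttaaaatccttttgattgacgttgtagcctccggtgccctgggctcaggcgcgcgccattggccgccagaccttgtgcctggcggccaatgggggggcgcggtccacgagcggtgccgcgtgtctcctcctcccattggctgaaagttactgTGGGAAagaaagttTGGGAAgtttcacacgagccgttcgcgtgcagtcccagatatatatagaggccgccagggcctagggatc
HES6: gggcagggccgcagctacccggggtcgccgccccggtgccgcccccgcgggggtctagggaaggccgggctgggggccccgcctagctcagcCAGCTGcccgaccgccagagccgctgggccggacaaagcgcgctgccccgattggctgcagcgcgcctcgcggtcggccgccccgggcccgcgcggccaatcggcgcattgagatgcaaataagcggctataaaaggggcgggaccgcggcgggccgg

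Counted from the start, TGGGAA lay at -84 and -70 in HES1, on the plus strand. Windows of 250 bases before to 50 after the start were searched on both strands for 7 of the 10 genes that the RefSeq table held. TGGGAA was found in 1 of these 7, HES1, and in 24.03% of all 35116 windows, and 3.80% of all windows held it at more than 1 position. CAGCTG was found in HES6 alone, at -158, and in 17.9% of all windows. The N-box CACNAG, a motif of HES proteins, was found in HES1, NOTCH1, NOTCH2 and NOTCH3 and in 38.03% of all windows, and the E-box CACGTG in none of the 7 and in 7.26% of all windows. A match of letters is a description of the window and not evidence of a bound site.

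HES1 (ENSG00000114315, chromosome 3, 194136148 to 194138732) stood at 11.3 FPKM in DMSO, 21.8 with 2.5 μM and 14.4 with 5 μM. It was highest at the lower dose. The log2 change was 0.94 (counting interval 0.75 to 1.15) at 2.5 μM and 0.34 (0.14 to 0.56) at 5 μM, against a spread of 0.25. The value at 5 μM changed sign under 2 other settings. It was -0.06 with the length trend removed and -0.03 after rescaling with mitochondrial and small RNA genes left out, while the value at 2.5 μM was 0.65 under each of these settings.

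HES6 (ENSG00000144485, chromosome 2, 238238267 to 238240662), the antagonist of HES1, stood at 94.4 FPKM in DMSO, 87.7 with 2.5 μM and 80.1 with 5 μM, the highest level of the 10 genes in every library. Its log2 changes of -0.11 and -0.24 did not pass the threshold, and the first lay within a spread of 0.21. With the length trend removed they were -0.43 and -0.69. HES1 and HES6 transcripts have similar lengths, 1575 and 1368 bases, so this correction lowers both.

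HEY1 (ENSG00000164683, chromosome 8, 79762371 to 79767857), a repressor of the HEY family that Notch induces in many tissues, was the single gene of the 10 that was higher by over 1 on the log2 scale. It stood at 11.6 FPKM in DMSO, 33.3 with 2.5 μM and 38.8 with 5 μM, on 410, 1492 and 2052 fragments. The log2 changes were 1.51 (counting interval 1.36 to 1.68) and 1.73 (1.59 to 1.90), several times the spread of 0.27. The 5 μM level was 3.34-fold above DMSO, and 5.85% of all genes past the filter were as high at that dose. Its value at 5 μM was 1.47 with the length trend removed and 1.35 with the rescaling that leaves out mitochondrial and small RNA genes.

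**Figure D4:**
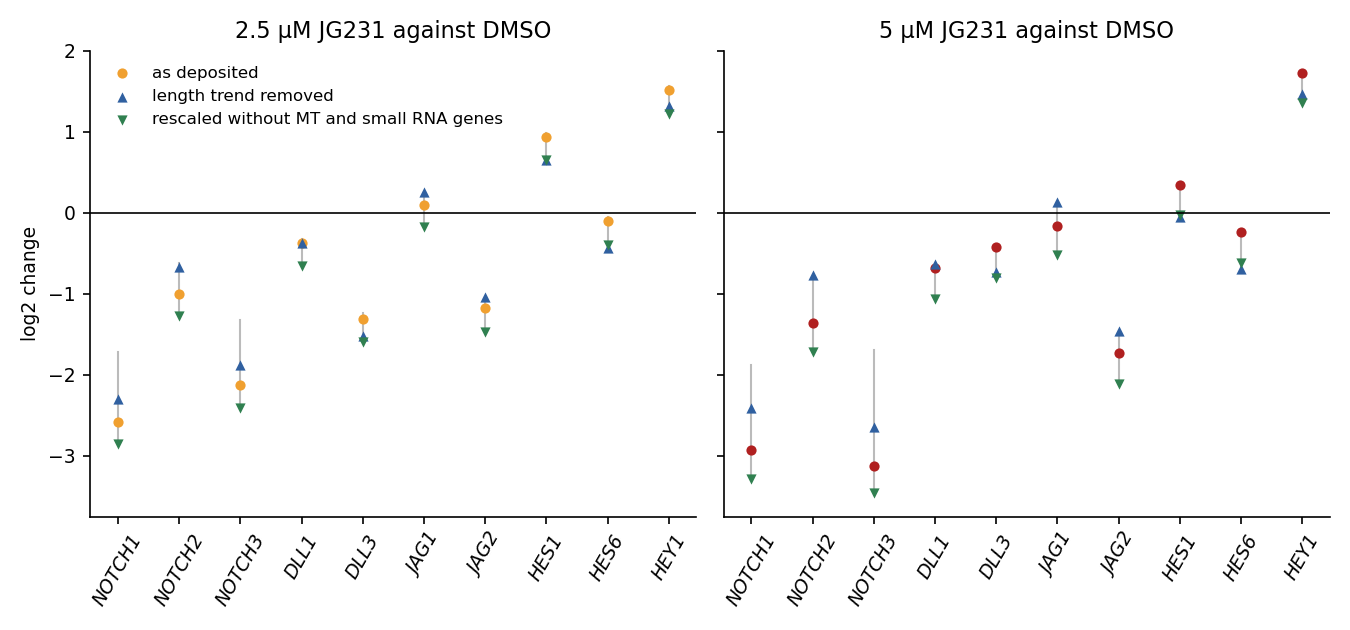
Log2 change against DMSO of the 10 Notch genes at 2.5 μM (left) and 5 μM (right) as deposited, with the length trend removed, and after rescaling that left out mitochondrial (MT) and small RNA genes. The grey line spans all settings in which the gene was kept. HES1 at 5 μM crosses 0, from 0.34 to -0.06, and JAG1 lies on both sides of 0, whereas NOTCH1 stays at or below -1.88 at 5 μM and HEY1 at or above 1.35.

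Set directly against each other, the JG231 libraries left 7 of the 10 genes over 1 FPKM, since all receptors were below it at both doses. Of these 7, DLL3 was higher at 5 μM by over 0.25 and DLL1, JAG1, JAG2 and HES1 were lower, against 26.8% higher and 30.1% lower of all 14197 genes. None of the 7 passed 1 on the log2 scale in either direction, against 7.47% and 8.09% of all genes. HEY1 was at 0.22 and HES6 at -0.13. The receptors, outside the filter, had differences of -0.35 for NOTCH1, -0.36 for NOTCH2 and -0.99 for NOTCH3, and only that of NOTCH3 exceeded its spread. The spread is taken from this same difference over genes of like level, so exceeding it is no support for a dose difference.

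The other genes of the pathway were taken from a list of 67, of which 60 were over 1 FPKM in the DMSO or 5 μM library. At 5 μM 31 of these were lower by over 0.25 and 17 higher, with a median of -0.27, and 6 were lower by over 1 and 1 higher. At 2.5 μM 27 of 60 were lower and 16 higher by over 0.25, with a median of -0.15, and 7 were lower by over 1 and 1 higher. The shares of all genes are those given above for the same rules. Rescaling with mitochondrial and small RNA genes left out put the median of genes with a mean of at least 1 FPKM at -0.38 (from -0.0081) at 5 μM, a shift about as large as the log2 changes of PSENEN, KAT2B, ITCH and DTX3 (0.32 to 0.40), so no direction is drawn from these genes. By role, the medians at 5 μM ran from -0.55 for enzymes that glycosylate receptors to 0.50 for the other HES and HEY genes. The latter is the median of 3 genes that differed in direction, HES4 at 0.50, HEY2 at 1.63 and HES2 at -2.19. In that comparison HES2 passed the filter through DMSO alone and HEY2 through 5 μM alone.

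Of the 7 glycosylating enzymes over 1 FPKM, LFNG had the largest change at 5 μM. LFNG encodes lunatic fringe, which adds sugars to the receptors and alters which ligands they respond to. It stood at 74.5 FPKM in DMSO, 17.2 with 2.5 μM and 15.8 with 5 μM, which is -2.11 and -2.23 on the log2 scale (spread 0.24). The paralog MFNG, named here after its values were seen, was below the filter, with 0.450 FPKM in DMSO on 15 fragments, 0.871 with 2.5 μM on 37, and listed at 0 with 5 μM. Another paralog, RFNG, radical fringe, was higher instead, with 10.6, 18.3 and 21.0 FPKM. The xylosyltransferases GXYLT1 and GXYLT2 also differed in direction, with 4.51, 2.37 and 2.31 FPKM for the former and 1.66, 2.96 and 2.86 for the latter.

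Of the machinery that cuts the receptors, 4 of 9 genes were lower and 3 higher by over 0.25 at 5 μM, beside 45.1% and 36.5% of all genes. None passed 1, beside 24.3% lower and 14.7% higher of all genes. ADAM10, the protease of the first ligand-induced cut, stood at 9.75 FPKM in DMSO, 6.22 with 2.5 μM and 5.49 with 5 μM. Among gamma-secretase subunits, PSEN2 had 3.73, 5.25 and 5.92 FPKM, PSENEN had 12.2, 20.6 and 15.9, and APH1B had 1.23, 0.831 and 0.726. Of 6 genes for ligand ubiquitination and endocytosis, NEURL1, a ubiquitin ligase for ligands, was lower by over 1 at both doses, with 6.23, 2.62 and 2.05 FPKM. MIB1, a ligase of the same function, had 7.43, 5.15 and 4.15 FPKM. Its paralog MIB2 had 12.3, 17.5 and 16.5 FPKM, and the endocytic adaptor EPN1 had 5.31, 6.88 and 7.75.

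In the nucleus, 6 of 9 genes of the activating complex were lower and 2 higher by over 0.25 at 5 μM, beside 45.1% and 36.5% of all genes. Among those lower, MAML1 and KAT2A passed the threshold narrowly, both at -0.27. At 2.5 μM 4 of 9 were lower and 2 higher, beside 43.4% and 36.4% of all genes. MAML3, a Mastermind coactivator, stood at 2.63 FPKM in DMSO, 2.01 with 2.5 μM and 0.664 with 5 μM, and MAML2 had 1.35, 1.08 and 0.637. SNW1, a coactivator that also serves in splicing, had 33.7, 57.8 and 64.3 FPKM, and the acetyltransferase gene KAT2B had 1.59, 2.47 and 2.12. Of 14 corepressors 7 were lower and 3 higher by over 0.25 at 5 μM, beside the same 45.1% and 36.5% of all genes. The Groucho-family gene TLE3 had 14.6, 6.59 and 4.79 FPKM, while its paralog TLE2 had 5.88, 8.69 and 9.48. CIR1, a corepressor that binds RBPJ, had 5.75, 9.13 and 11.4.

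Among 10 genes that inhibit the receptors or turn them over, 4 were lower and 2 higher by over 0.25 at 5 μM, beside 45.1% and 36.5% of all genes. NRARP, both a target and a feedback inhibitor of Notch, stood at 6.46 FPKM in DMSO, 2.80 with 2.5 μM and 3.45 with 5 μM, so it was lower while HEY1 was higher. The Deltex gene DTX1 had 1.84, 0.179 and 0.957 FPKM and was lowest at 2.5 μM, on 14 fragments. The ubiquitin ligase gene ITCH had 12.7, 18.2 and 16.6 FPKM, and DTX3 had 15.8, 18.4 and 19.8. Of 7 other HES and HEY genes, 3 were over 1 FPKM. HEY2 had 0.340 FPKM in DMSO on 14 fragments, 1.61 at 2.5 μM and 1.26 at 5 μM. HES2 had 2.07, 0.218 and 0.377 FPKM. HES4, which the rule for naming genes did not select and which was chosen after its values were seen, had 69.1, 100.5 and 97.8 FPKM and was the second most abundant HES gene after HES6 in DMSO. HES3 and HES5 were listed at 0 in all libraries.

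**Figure D5:**
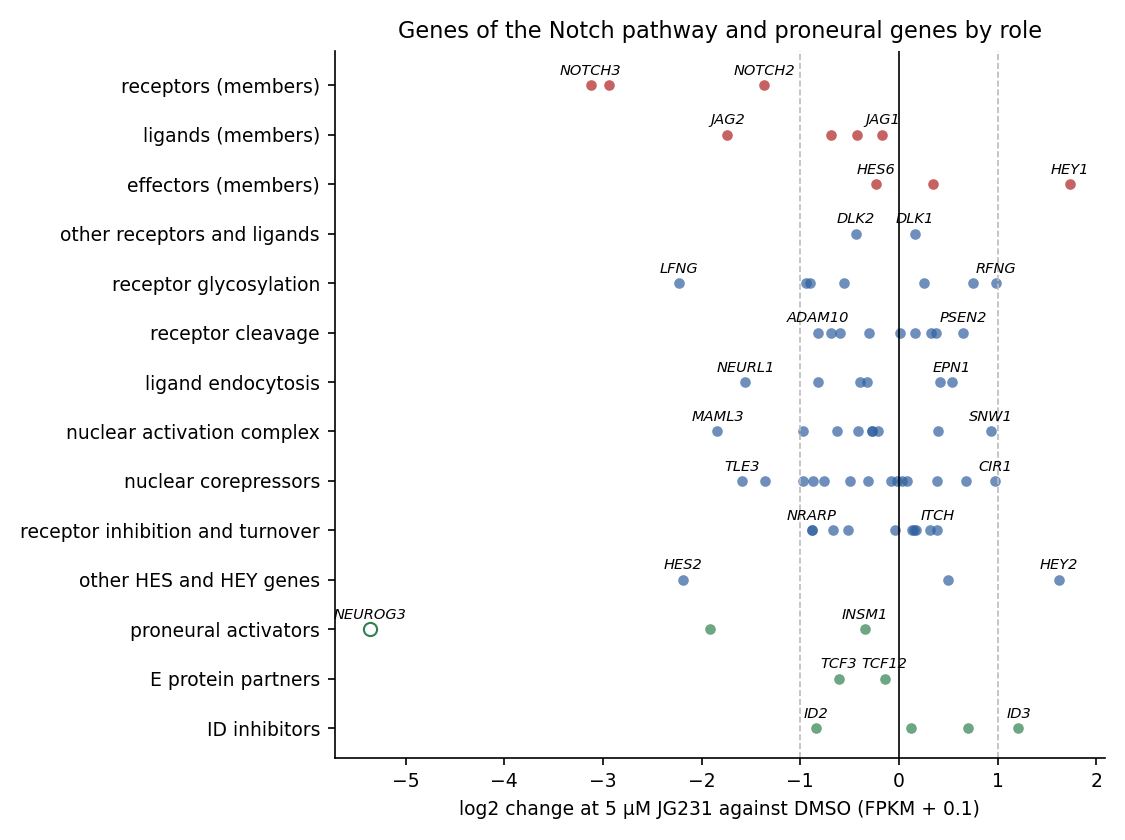
Log2 change at 5 μM JG231 against DMSO (FPKM + 0.1) of each gene over 1 FPKM in either library, by role, with the 10 Notch genes in red, other pathway genes in blue and proneural and partner genes in green. The lowest and highest gene of each role are named, dashed lines mark -1 and 1, and the open circle (NEUROG3) was listed at 0 at 5 μM. The receptors lie between -3.13 and -1.36.

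Proneural factors and their partners formed a second list of 20 genes, of which 9 were over 1 FPKM in the DMSO or 5 μM library. At 5 μM 5 of 9 were lower by over 0.25 and 2 higher, beside 45.1% and 36.5% of all genes, with a median of -0.35. NEUROG3 had 4.02 FPKM in DMSO on 101 fragments, 0.499 at 2.5 μM on 16, and was listed at 0 at 5 μM. TCF3, an E protein that pairs with proneural factors, had 27.8, 17.8 and 18.2 FPKM.

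The ID genes encode proteins that bind E proteins and keep them from DNA, which opposes proneural factors. ID3 stood at 196.8 FPKM in DMSO, 403.2 with 2.5 μM and 456.2 with 5 μM, and ID4 had 105.2, 213.6 and 170.6. ID2 was lower, with 404.1, 303.1 and 226.4 FPKM. At 2.5 μM, 10 of the 20 genes were over 1 FPKM in the DMSO or 2.5 μM library. NEUROD4, named here after its values were seen, passed through the 2.5 μM library alone. It was listed at 0 in DMSO, with 1.08 FPKM at 2.5 μM and 0.883 at 5 μM, so the set at 5 μM lacks it. Of the 10, 5 were higher and 4 lower by over 0.25, beside 36.4% and 43.4% of all genes, with a median of 0.17. That median was -0.09 with the length trend removed and -0.12 after the rescaling that leaves out mitochondrial and small RNA genes, so the list had no stable direction at 2.5 μM. ID3 was higher at both doses, by 1.03 and 1.21 on the log2 scale. Its transcript of 950 bases falls in the shortest length group, whose medians were 0.43 at 2.5 μM and 0.61 at 5 μM.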

How the data were processed

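RNA-seq of 3 H660 libraries was analysed. According to the methods of the study, the authors used HISAT for the alignment of reads and StringTie for quantification, and deposited gene-level FPKM. The same methods also name a Top Hat-Cufflinks pipeline. The submitters' processing notes name HISAT2, featureCounts, GRCh38 and hg38 without roles or versions. The annotation release is not given in the sources used here. FPKM is corrected for length and library size, and a few abundant RNAs can shift all other values.

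GENCODE release 44 held 58207 of the 58735 identifiers and gave coordinates and lengths. All genes of the lists were found, TLE5 by identifier. No count model was applied. The pseudocount of 0.1 and the log2 threshold of 0.25 follow the study's methods. Those methods filter on expression over 1 and keep genes that go to or from 0. Here the filter was over 1 FPKM in either library compared, with no exception for genes at 0. The members and lists were chosen with earlier results of these data known. Named genes were all members and, per role, the 1 or 2 largest changes of each sign at 5 μM with the same sign at 2.5 μM. Alternatives were the pseudocount, filter, scaling, length trend (lowess fraction 0.3) and summed symbols. Code was tested on simulated data. Promoters are from RefSeq. Some genes selected by this rule or belonging to the lists are not reported here. A planned comparison of protein sequences was not made. The tools were scipy 1.17.1, numpy 2.4.6, matplotlib 3.10.9, statsmodels 0.14.6 and pandas 2.3.3 under Python 3.11.15.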

Additional observations from a re-analysis of the deposited data

How the results depend on the processing

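With 1 library per condition no replicate could be left out. No paired analysis was possible because each condition has 1 library and no test was made. Rescaling to the same sum without mitochondrial and small RNA genes put the median of genes with a mean of at least 1 FPKM at -0.38 for 5 μM and -0.28 for 2.5 μM, and the median of the 10 Notch genes was then -0.94 and -0.97. It was -0.49 at 2.5 μM with a pseudocount of 1. With a mean FPKM of at least 5, which removes all receptors and JAG1, it was -0.33 for 5 μM and -0.24 for 2.5 μM, with 3 of the 6 genes kept lower by over 0.25 at 5 μM and 3 at 2.5 μM (27.4% and 26.1% of all 7583 genes kept), and 1 and 2 lower by over 1 (7.48% and 6.30%). Only HEY1 (1 gene) was higher by over 0.25 at 5 μM after rescaling to the same sum with all genes (31.5% of all genes higher) or without mitochondrial and small RNA genes (22.98%), or with the length trend removed (32.9%). HES1 at 5 μM was -0.033 after the rescaling without mitochondrial and small RNA genes and -0.057 with the length trend removed. Between the doses, the median was -0.47 after rescaling to the same sum, and 7 genes were lower by over 0.25 with no filter on low values, as were 13.5% of all 58735 genes. With no filter, the median of the proneural list was 0 at 5 μM and 0 between the doses. Of 135 values for the 10 genes as a list, 121 stayed within 1.5 times the count or, for medians, moved by less than the typical counting interval of a gene. Of the other values checked, 396 stayed the same, 104 moved and 4 were reversed. Depth limits NOTCH3 most, with 55 fragments at 5 μM.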
